A study of Mus musculus with 6 samples.

Results

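The receptors for IL-3, IL-5 and GM-CSF share their signalling chains, and their 5 subunit genes were followed here in bone marrow-derived basophils (BMBAs), basophils grown in culture from mouse bone marrow. The 5 genes, Il3ra, Csf2ra, Il5ra, Csf2rb and Csf2rb2, were taken by symbol from the 37043 gene symbols of the deposited count table, and all 5 were found. BMBAs of wild-type C57BL/6J mice were given PBS or IL-3 at 10 ng/mL for 6 h, with 3 libraries in each group. In both groups alike, the marrow had first been cultured for 7 days at 0.3 ng/mL of IL-3 and basophils had then been enriched with an antibody to CD49b, so the PBS group is not free of earlier IL-3. The study's methods, not the labels, name IL-3 as the cytokine of that culture, and whether any remained during the 6 h is not stated. The comparison belongs to the question of how IL-3 acts on basophils of the bone marrow.

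Each of these receptors pairs a ligand-specific alpha chain with a beta chain that carries the signal. Il3ra, Csf2ra and Il5ra encode the alpha chains for IL-3, GM-CSF and IL-5, and Csf2rb encodes the common beta chain used by all of these cytokines. Mice carry an additional beta chain gene, Csf2rb2, whose product binds IL-3 and works with the IL-3 receptor alpha chain only. The beta chains hold the kinase JAK2, which activates STAT5, and IL-3 acting through them is a chief growth and activation signal of basophils.

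The libraries held 10537540 to 13999287 counts each. The libraries of each group differed from each other by more than counting noise, with a chi-square per degree of freedom of at least 2.75. Levels are given as CPM, the counts-per-million values after TMM scaling of the library sizes. The 8 basophil markers, among them the protease gene Prss34, were all detected and summed to 10770 to 11860 CPM in PBS and 15900 to 16120 CPM in IL-3. Prss34 itself was level, at means of 5615 and 5661 CPM. Mcpt8, another protease gene, named after its values were seen, went from 3066 to 5895 CPM.

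Csf2rb and Csf2rb2 lie 20030 bp apart on chromosome 15 and point away from each other, and their likeness decides how far their counts can be told apart. Csf2rb (ENSMUSG00000071713) spans 78325752 to 78353847 on the plus strand and Csf2rb2 (ENSMUSG00000071714) spans 78282507 to 78305721 on the minus strand (GRCm38, GENCODE M21). Their coding sequences of 2688 and 2634 nt were identical at 95.2% of the 2628 aligned positions and differed at 125. The stretch of 120 bases with the most differences is shown first, from coding base 309 of Csf2rb and coding base 312 of Csf2rb2, with the 22 differing bases in capitals.
Csf2rb: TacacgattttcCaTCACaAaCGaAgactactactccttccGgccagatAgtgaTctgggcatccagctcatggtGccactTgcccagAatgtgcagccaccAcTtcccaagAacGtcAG
Csf2rb2: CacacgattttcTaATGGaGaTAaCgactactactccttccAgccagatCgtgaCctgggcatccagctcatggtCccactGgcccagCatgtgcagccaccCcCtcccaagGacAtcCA
A read from this stretch can be placed. The longest identical run is 242 bases, from coding base 2083 to 2324 of both genes, and a read that falls inside it fits either gene equally well, so it is printed once, without capitals.
Both genes: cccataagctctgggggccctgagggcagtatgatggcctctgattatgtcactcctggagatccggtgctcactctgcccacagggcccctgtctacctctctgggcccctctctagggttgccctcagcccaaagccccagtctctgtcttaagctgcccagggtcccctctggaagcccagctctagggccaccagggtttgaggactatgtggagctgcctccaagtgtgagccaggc

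Over the whole transcripts, 18.4% of the 50-mers of Csf2rb and 19.4% of those of Csf2rb2 also occurred in transcripts of another gene, in nearly all cases the other beta chain. For 100-mers these shares were 6.96% and 7.2%. The split of counts between the beta chains is therefore uncertain, and their summed counts are given beside the separate values. Il3ra and Csf2ra shared no 50-mer with any other gene, and Il5ra shared 0.936%.

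**Figure D1:**
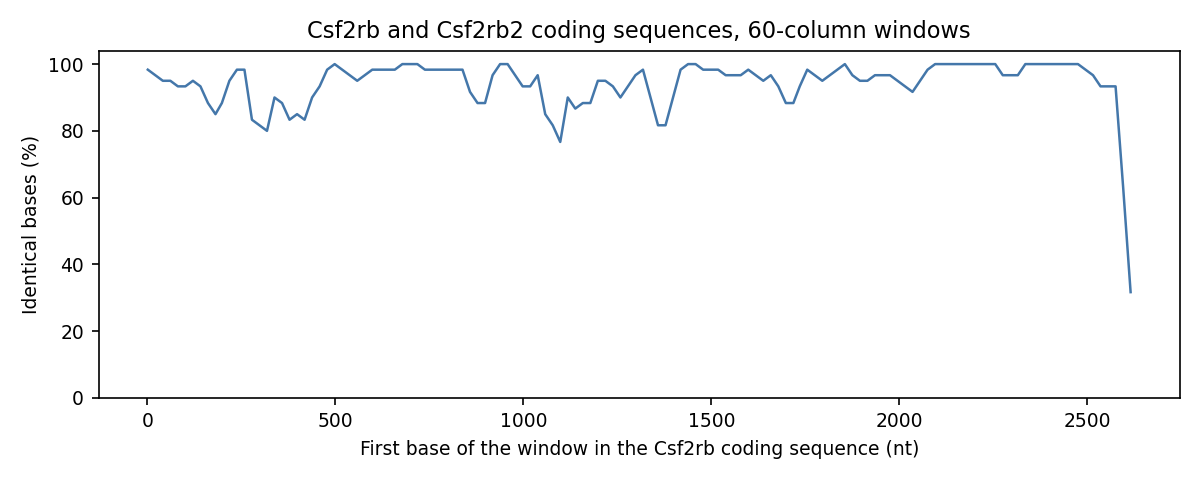
The line plots the percent of identical bases between the coding sequences of Csf2rb and Csf2rb2 in windows of 60 alignment columns, against the position of the window in the Csf2rb coding sequence. Of 132 windows, 26 are fully identical, most of them toward the right, and the drop to 31.7% in the last window comes from alignment gaps.

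Both beta chain transcripts rose with IL-3. Csf2rb was measured at 1746, 1776 and 1816 CPM in PBS replicates 1, 2 and 3 and at 4330, 4537 and 4509 CPM in the IL-3 libraries. All IL-3 libraries lay far above all PBS libraries, and the libraries within each group were close together. Its mean went from 1779 ± 35.1 to 4459 ± 112 CPM (SD, n = 3 each), or 1.33 as log2 fold change (SE 0.0386, edgeR adjusted p = 2.29e-13). By counts it was already the 32nd most abundant of the 16675 genes tested in PBS, and it was the 18th in IL-3.

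Csf2rb2, the beta chain gene for IL-3 alone, had the larger log2 fold change. It was measured at 928.1, 927.6 and 963.3 CPM in PBS and at 2898, 2977 and 3062 CPM in IL-3. Here too the groups stood apart without overlap. The mean went from 939.7 ± 20.5 to 2979 ± 82.0 CPM (SD, n = 3 each), or 1.66 as log2 fold change (SE 0.0416, edgeR adjusted p = 3.84e-14). Its rank by counts moved from 74th to 25th. With the counts of both genes summed, which does not depend on how shared reads were split between them, the log2 fold change was 1.45 (SE 0.0366), a 2.74-fold rise with a 95% interval of 2.59 to 2.89.

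The alpha chains went different ways. Il3ra (ENSMUSG00000068758, chromosome 14, 14346275 to 14356011, plus strand), which confers the specificity for IL-3, had 84.75, 83.82 and 102 CPM in PBS and 125.5, 115.9 and 113.7 CPM in IL-3. PBS replicate 3 was the highest PBS library and still lay below all IL-3 libraries. The rise was small next to those of the beta chains, from 90.2 ± 10.2 to 118 ± 6.26 CPM (SD, n = 3 each), or 0.39 as log2 fold change (SE 0.0759, edgeR adjusted p = 0.000688). When libraries were scaled by their totals alone, which lowered the median log2 fold change of all genes from -0.0033 to -0.166, the value for Il3ra was 0.23 with an adjusted p of 0.0381 (over all alternatives its adjusted p lay between 9.59e-08 and 0.0381).

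Csf2ra, which encodes the GM-CSF binding chain (ENSMUSG00000059326, chromosome 19, 61223957 to 61228429, minus strand), was the subunit that fell. It had 134.3, 128.9 and 136.9 CPM in PBS and 93, 91.44 and 91.76 CPM in IL-3, so that no libraries of the groups overlapped and the IL-3 libraries were nearly equal. The mean fell from 133 ± 4.09 to 92.1 ± 0.826 CPM (SD, n = 3 each), or -0.53 as log2 fold change (SE 0.0565, edgeR adjusted p = 1.60e-06). In bulk RNA, fewer cells that carry a transcript and less of it per cell cannot be told apart. Macrophages also express this receptor, and 7 of 10 monocyte and macrophage markers fell in the same comparison while 2 rose, beside 20.2% lower and 18.0% higher of all genes tested. With scaling by library totals 8 fell and 2 rose, beside 5030 lower and 1698 higher of 16675 genes. Their summed level was 11770 to 12700 CPM in PBS and 6176 to 6809 CPM in IL-3, with none of them at 0, and Lyz2, a lysozyme and the most abundant, had a log2 fold change of -0.97. Lyz2 alone, at means of 10456 and 5348 CPM, made up most of that summed level. The other markers called lower had log2 fold changes from -1.09 for C1qc to -0.68 for Ms4a7. The markers that rose were Adgre1 and Ly6c2, with log2 fold changes of 0.53 and 1.29. These genes other than Lyz2 were named after their values were seen. The part of monocytes and macrophages in the fall of Csf2ra was not tested.

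Il5ra, the gene of the IL-5 binding chain (ENSMUSG00000005364, chromosome 6, 106710357 to 106749037, minus strand), was barely expressed. It had 28, 32 and 24 counts in the PBS libraries and 33, 41 and 27 counts in the IL-3 libraries, or 2.291, 2.806 and 2.114 CPM against 3.258, 3.414 and 2.094 CPM. The groups overlapped, since IL-3 replicate 3 was the lowest of all libraries. The log2 fold change was 0.27 (edgeR adjusted p = 0.471) with a 95% interval from -0.30 to 0.84, so neither a modest fall nor a rise of up to 1.80-fold is excluded at this depth. Eosinophils and some B cells are known for this receptor. Of the 8 eosinophil markers 5 were tested, of which 3 were lower and 1 higher, beside 20.2% lower and 18.0% higher of all genes. The sum of the 8 was 154.9 to 172.9 CPM in PBS and 96.19 to 138 CPM in IL-3. Most of it was Ear2, an eosinophil ribonuclease gene, at a mean of 134 CPM in PBS against 51.3 CPM with IL-3, while Prg2, the major basic protein gene, went the other way, from 4.27 to 49.8 CPM. Epx had only 2, 3 and 3 counts in PBS and 6, 8 and 1 in IL-3. Siglecf went from 7.34 to 4.13 CPM. Epx and Siglecf were named after their values were seen. The 6 B cell markers summed to 6.218 to 9.162 CPM in PBS and 4.081 to 6.614 CPM in IL-3. The part of either cell type in the Il5ra counts was not tested.

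**Figure D2:**
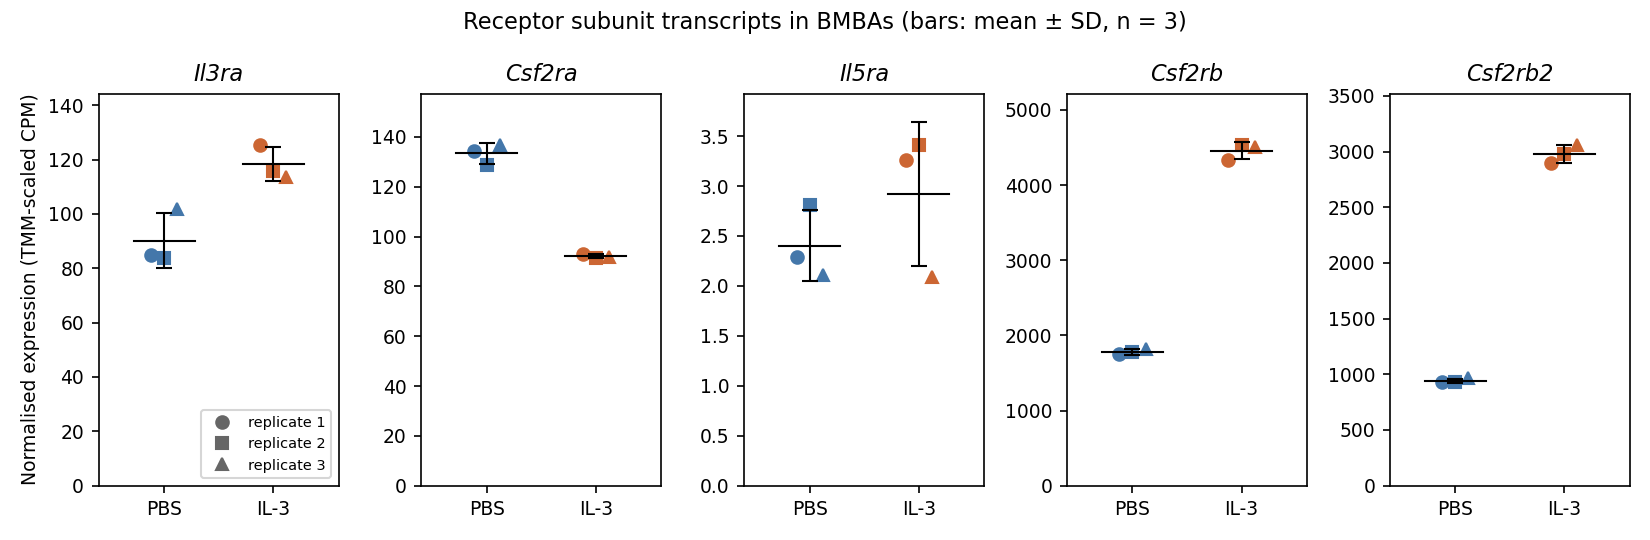
Points give the TMM-scaled CPM of each subunit in each library, by group, and bars the mean ± SD of 3 libraries, each panel with its own axis from 0. Csf2rb and Csf2rb2 in IL-3 lie far above PBS, Il3ra slightly above, Csf2ra below, and the groups overlap for Il5ra.

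Of the 5 subunits, the quasi-likelihood test of edgeR called 3 higher and 1 lower, with 0.05 as the limit of the adjusted p. Among all genes tested, 18.0% were called higher and 20.2% lower, 38.2% either way. These were 3003 higher and 3372 lower genes, against 1698 higher and 5030 lower with scaling by library totals alone. The 4 called subunits were also those with no overlap between groups, which held for 48.2% of all genes. A call as such was common in these data. By size, 97.5% of all genes tested had a lower log2 fold change than Csf2rb and 98.4% a lower one than Csf2rb2. The corresponding shares were 83.9% for Il3ra, 76.7% for Il5ra and 16.5% for Csf2ra. Each call and direction held in all 14 alternatives run, and so did the absence of a call for Il5ra.

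**Figure D3:**
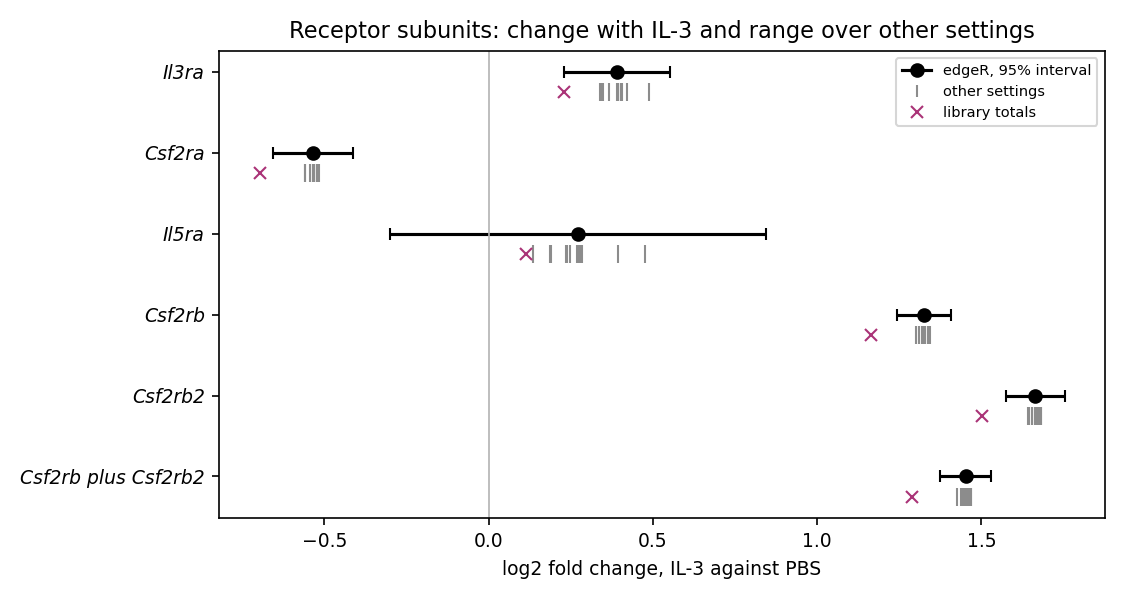
Black points show the log2 fold change of each subunit and of the summed beta chains with the 95% interval from edgeR, gray ticks the values under other settings and crosses those with scaling by library totals. All values of Csf2ra lie below 0 and all those of Il3ra, Csf2rb and Csf2rb2 above, while the interval of Il5ra, from -0.30 to 0.84, spans 0.

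Levels were compared between subunits per kilobase of the main coding transcript. In PBS, Csf2rb came first with 363 ± 7.17 CPM per kb, followed by Csf2rb2 with 198 ± 4.32, Csf2ra with 72.1 ± 2.21, Il3ra with 39 ± 4.42 and Il5ra with 0.672 ± 0.101 CPM per kb (SD, n = 3). Each step in this order was larger than the spread between libraries. In IL-3, Csf2rb reached 910 ± 22.9 and Csf2rb2 628 ± 17.3 CPM per kb. Il3ra, at 51.1 ± 2.71, and Csf2ra, at 49.8 ± 0.446 CPM per kb, then overlapped, so that their order was not resolved, and Il5ra stayed last at 0.817 ± 0.202. The order of the alpha chains depends on the length used. Per kilobase of coding sequence Csf2ra led Il3ra in PBS, with 115 ± 3.51 against 75.9 ± 8.62 CPM per kb, and Il3ra led in IL-3, with 99.6 ± 5.28 against 79.1 ± 0.708 CPM per kb. The log2 ratio of Il3ra to Csf2ra counts, chosen after the values were seen, went from -0.57 ± 0.128 to 0.36 ± 0.0635 (SD, n = 3 each), and this change does not depend on length or scaling.

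Ratios within a library show how the balance of chains moved. For each Il3ra count there were 31.55, 32.25 and 27.24 beta chain counts in the PBS libraries and 57.6, 64.81 and 66.58 in the IL-3 libraries. For each Csf2ra count there were 19.9, 20.97 and 20.3 in PBS and 77.71, 82.17 and 82.51 in IL-3. For Il5ra the numbers were 963.5 to 1314 in PBS and 2201 to 3615 in IL-3. The excess of beta chain counts over every alpha chain was thus larger in all IL-3 libraries than in any PBS library. On the log2 scale the ratio of alpha to beta chains changed by -1.06 for Il3ra, -1.99 for Csf2ra and -1.196 for Il5ra.

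Within the beta chains, the share of Csf2rb2 was higher in all IL-3 libraries than in any PBS library. It made up 34.7% (95% Wilson interval 34.2 to 35.2), 34.3% (33.8 to 34.8) and 34.7% (34.1 to 35.2) of the beta chain counts in the PBS libraries. In the IL-3 libraries the share was 40.1% (39.7 to 40.4), 39.6% (39.3 to 39.9) and 40.4% (40.1 to 40.7). These intervals cover counting error only. The mean log2 ratio of Csf2rb2 to Csf2rb was higher by 0.34 in IL-3, against SDs of 0.0139 and 0.0248 between libraries. For each of the 4 ratios the two-sided exact permutation p was 0.10, which is the smallest that 3 against 3 libraries can give, and the adjusted p over the 4 was also 0.10, so none can pass 0.05 in this design.

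**Figure D4:**
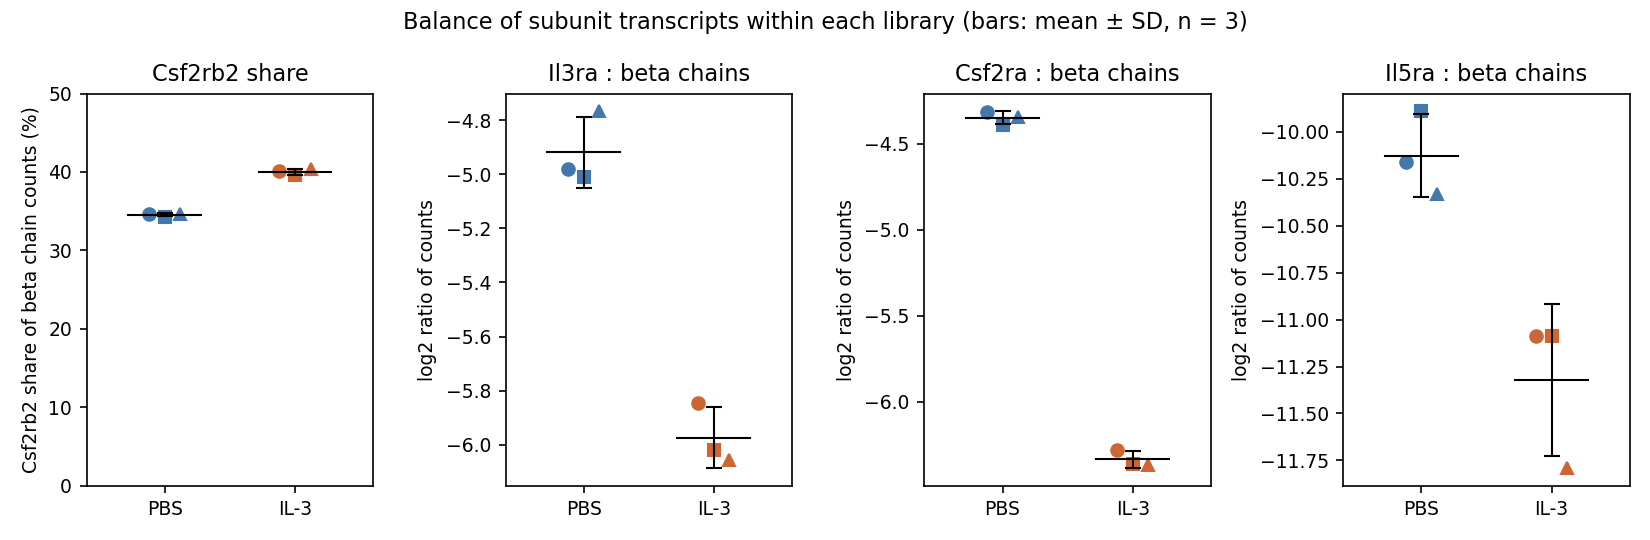
The left panel plots the share of Csf2rb2 in the beta chain counts of each library in percent, and the other panels the log2 ratio of each alpha chain to the summed beta chain counts, with mean ± SD of 3 libraries. The share is about 34 to 35% in PBS and about 40% in IL-3, and every alpha chain ratio is lower in IL-3 than in PBS.

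The cytokines that these receptors bind were hardly transcribed by the cells. Il3 had 0 counts in all 6 libraries, which allows up to 3 counts, or 0.233 to 0.296 CPM, per library. Il5 had 3, 0 and 5 counts in PBS and 0, 2 and 0 in IL-3. Csf2, the gene of GM-CSF, had 1, 4 and 1 counts in PBS and 1, 15 and 5 in IL-3. None of these was expressed highly enough to be tested, and any difference was not detectable at this depth.

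The promoter windows of 4 subunits, 250 bases before to 50 after the start site, were taken from RefSeq (GRCm38.p6). That of Csf2rb was not in the table used. Each window was searched on both strands for TTCNNNGAA, the core that STAT factors bind. The GATA motif searched was AGATAA alone, so other forms of a GATA site were not counted. For PU.1, a transcription factor of myeloid cells, the motif was GAGGAA. No match overlapped another. The window of Csf2rb2, the subunit with the largest rise, held a match to the STAT motif at its bases 236 to 244 and 2 matches to the PU.1 motif, all in capitals here.
Csf2rb2 (chr15:78305672-78305971, minus strand): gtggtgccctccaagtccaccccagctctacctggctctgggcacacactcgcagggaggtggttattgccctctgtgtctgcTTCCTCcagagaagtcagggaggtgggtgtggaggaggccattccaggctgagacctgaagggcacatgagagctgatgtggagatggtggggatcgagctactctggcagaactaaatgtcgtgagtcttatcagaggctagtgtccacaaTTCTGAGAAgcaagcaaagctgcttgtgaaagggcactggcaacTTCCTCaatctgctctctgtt
The window of Csf2ra, the subunit that fell, held no STAT match and 2 adjoining PU.1 matches, in capitals.
Csf2ra (chr19:61228369-61228668, minus strand): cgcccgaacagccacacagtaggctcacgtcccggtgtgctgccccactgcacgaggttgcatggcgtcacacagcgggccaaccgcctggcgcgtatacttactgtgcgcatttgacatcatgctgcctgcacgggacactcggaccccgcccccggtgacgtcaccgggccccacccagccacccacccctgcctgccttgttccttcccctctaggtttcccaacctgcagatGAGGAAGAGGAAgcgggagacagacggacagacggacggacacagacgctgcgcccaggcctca
The Il3ra window held none of these motifs and had a GC content of 74.3%. That of Il5ra held 1 GATA and 1 PU.1 match. Of all 32851 RefSeq windows of this length, 8.3% held the STAT, 11.2% the GATA and 28.3% the PU.1 motif. A match is a description of letters and does not show that a factor binds there.

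Next to the subunits, genes of the signal path behind the beta chains were read from a list of 24 genes, all of which were tested. Of these, 11 were higher and 5 lower in IL-3, where 18.0% of all genes tested were higher and 20.2% lower. Its median was a log2 fold change of 0.05, against -0.0033 over all genes tested. Scaling by library totals alone turned the split to 8 higher and 10 lower. The rises with the smallest p were those of Pik3cd, a catalytic subunit of PI3 kinase, of Jak2, the kinase bound to the beta chains, and of the adaptor gene Gab2. Pik3cd went from 64.0 ± 1.496 to 381 ± 19.7 CPM (SD, n = 3 each), or 2.57 as log2 fold change (edgeR adjusted p = 1.63e-14). Jak2 had a log2 fold change of 1.07 and Gab2 of 1.14. Among the genes that fell were those of the PI3 kinase subunits Pik3r2, with a log2 fold change of -0.73, and Pik3cb, at -0.80. Stat5a, one of the genes of STAT5, was not called, with 34.6 ± 2.66 and 33.4 ± 1.55 CPM, while Stat5b had a log2 fold change of -0.24 (edgeR adjusted p 0.0178). Both were named after their values were seen.

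Known feedback and target genes of this pathway had the highest median of the 3 gene lists. All 11 genes of the list were called, 10 higher and 1 lower, beside 38.2% called of all genes tested. The median log2 fold change was 2.63. The smallest p values belonged to the feedback inhibitors Cish, Socs1 and Socs3, and the gene that fell was Bcl6, a transcriptional repressor, with a log2 fold change of -1.58.

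Other receptors of the same structural family, the type I cytokine receptors, were measured as a comparison. Of 28 listed chains 23 were tested, of which 5 were higher and 6 lower, with a median log2 fold change of -0.22. These counts are near the shares over all genes tested, 18.0% higher and 20.2% lower. With scaling by library totals 5 were higher and 9 lower. Il4ra, the IL-4 receptor alpha chain, had 54.3 ± 2.32 CPM in PBS and 167 ± 6.03 CPM with IL-3 (SD, n = 3 each), and its log2 fold change was 1.62. Il2rg, the chain shared by several interleukin receptors, and Crlf2, the TSLP receptor chain, rose by 0.93 and 0.71 on the log2 scale. Il7r, which pairs with either of these, fell by 1.22, and the erythropoietin receptor gene Epor and the IL-11 receptor gene Il11ra1 fell by 1.34 and 0.58. Il2ra, named after its values were seen, had the highest log2 fold change of the list, 1.77, at only 3.93 ± 0.212 CPM in IL-3.

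**Figure D5:**
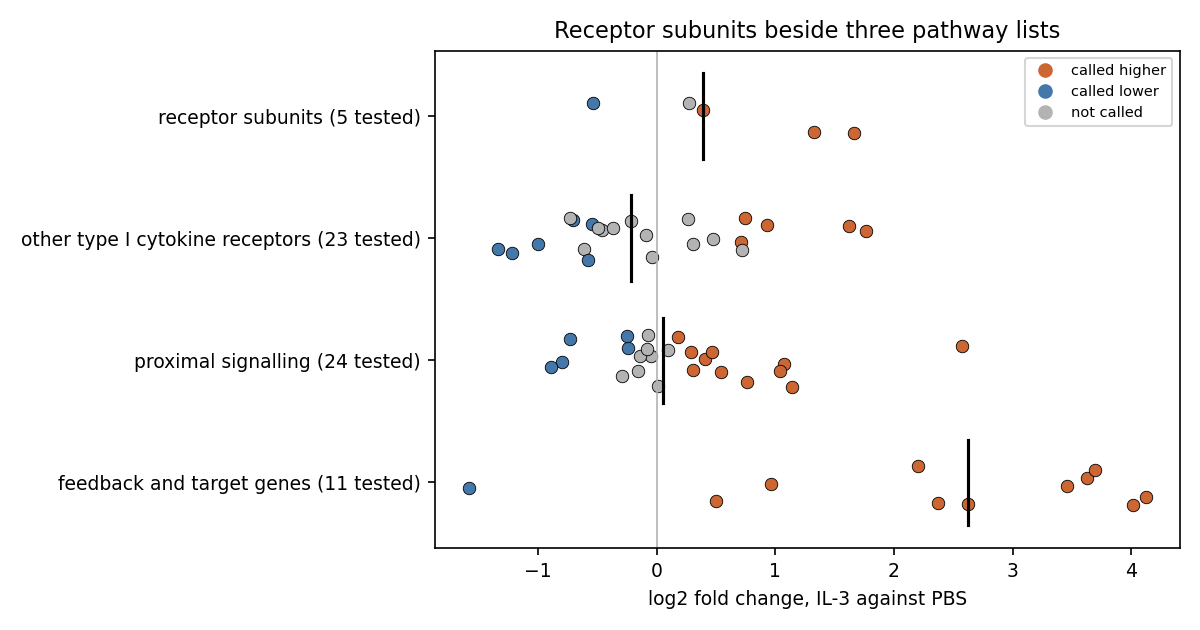
Each point is the log2 fold change of a tested gene in the subunits or in a pathway list, coloured by its call, with the list median as a vertical line. Among the subunits and the other type I receptors some genes are called on each side of 0, while 10 of 11 feedback and target genes lie above 0.

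The genes whose level followed each subunit most closely over the 6 libraries were found by Pearson's r of log2 CPM among genes of at least 20 CPM. With 6 libraries in groups that differ, such values come near 1 for many genes and describe the group difference. For Csf2rb these were the chemokine gene Ccl6 (r = 0.9998) and Csf2rb2. For Csf2rb2 they were Fcer1g (r = 0.9999), the signalling chain of the IgE receptor, and Lilr4b, an inhibitory receptor gene. Fcer1g had 1131 ± 7.49 CPM in PBS and 1648 ± 20.7 CPM with IL-3 (SD, n = 3 each), a far smaller fold difference than Csf2rb2. Tor1aip1 and Tmem185b were nearest to Il3ra (r = 0.9983 and 0.9982). Samhd1 and Cat, which encode a nucleotide hydrolase and catalase, were nearest to Csf2ra, with log2 fold changes of -0.78 and -0.50. For Il5ra the values were lower, 0.980 for Daxx and 0.943 for Smarcad1.

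Markers of other cells that a bead-enriched culture can hold were read in the same comparison, in which 18.0% of all genes tested were called higher and 20.2% lower. The lists are short, so single called genes in them can be read only loosely against these shares. Of the basophil markers 5 of 8 were higher and 2 lower. The lower were Fcer1a, the IgE-binding chain, and Clec12a, with log2 fold changes of -0.50 and -1.24. Cd9 and Itga2, the gene of CD49b, were among the higher, at 0.55 and 0.53. All of these were named after their values were seen. The study uses their surface proteins to separate pre-basophils, high in CLEC12A and FcεRIα, from mature basophils, high in CD9 and CD49b. The share of each stage was not tested. Of the 8 mast cell markers 4 were higher and 2 lower, and their sum went from at most 1041 CPM in PBS to at least 1461 CPM in IL-3. Most of that sum was Cpa3, at means of 547 and 793 CPM. The 2 lower genes were Mcpt1, from 46.9 to 16.1 CPM, and Mcpt2, from 22.1 to 10.6 CPM, of which Mcpt2 was named after its values were seen. Of 7 neutrophil markers tested, 3 were higher and 1 lower, and the list sum was 122 to 158.5 CPM in PBS and 194.9 to 258.9 CPM in IL-3, without overlap. The dendritic cell list had 1 lower gene of 6 tested, near the share over all genes, and its sum was 11.31 to 14.32 CPM in PBS and 8.827 to 9.774 CPM in IL-3. The only NK cell marker tested, Nkg7, was higher, with a list sum of 6.708 to 8.943 CPM in PBS and 29.03 to 33.14 CPM in IL-3. Of 4 erythroid genes tested 2 were lower, with a list sum of 100 to 218.5 CPM in PBS and 54.6 to 101.1 CPM in IL-3, and of 3 B cell genes tested 1 was lower. Cd209a, Gzma and Alas2, named after their values were seen, had no count in any library. The part of these cells in the subunit values was not tested.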

How the data were processed

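Bulk RNA-seq was performed on 3 PBS and 3 IL-3 libraries of BMBAs, grouped by the sample titles. Libraries were made from amplified cDNA of polyadenylated RNA per the labels. The authors trimmed reads with Cutadapt 3.4, mapped them with Bowtie2 to reference RNA and deposited raw read counts per gene symbol. The methods name build GRCm38 and the labels GRCm39. Coordinates here are those of GENCODE M21 (GRCm38), joined by symbol. Whether counting used strand, and how reads fitting several genes were placed, was not given in the sources used here. No molecular identifiers are described, so PCR copies count as reads. The study gives 3 cultures per group, and p-values measure the spread between these libraries.

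Counts were filtered with filterByExpr, scaled by TMM and tested with the quasi-likelihood F test of edgeR 4.0.16 (R 4.3.3), two-sided, with the group as the only term and Benjamini-Hochberg adjustment over the 16675 genes tested. The SE was derived from F, and the 95% interval from the t distribution of that fit. Ratios within libraries used counts plus 0.5 and an exact permutation test. On simulated counts with known changes the fit recovered the directions that had been set. Those changes were few and evenly split between rises and falls, so the simulation does not test the choice of scaling. Alternatives were other size factors, library totals, iterated TMM, other filters, DESeq2 1.42.0, limma-voom (limma 3.58.1), a replicate block and leaving out each library.

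The subunits and the lists were chosen with earlier results of these data known. Besides the subunits and their ligands, genes were named as the 3 called genes with the smallest p in each direction of a pathway list, the 2 genes most like each subunit, the neighbours of each subunit, and leading genes of the marker lists. Any other is said to have been named after its values were seen. A gene that this rule picks from a pathway list is not reported here. Main coding transcripts were the APPRIS principal, or else the longest.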

Additional observations from a re-analysis of the deposited data

How the results depend on the processing

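The calls and directions of the 5 subunits and of the summed beta chains, and the directions of the ratios, were the same under all alternatives run for them. Log2 fold changes ranged from 0.23 to 0.49 for Il3ra, 1.16 to 1.34 for Csf2rb, 1.502 to 1.68 for Csf2rb2, -0.70 to -0.52 for Csf2ra and 0.11 to 0.48 for Il5ra, and from 1.29 to 1.47 for the summed beta chains. Scaling by library totals gave the lowest value in each case and 1698 higher and 5030 lower genes in place of 3003 and 3372 (25.2% of the calls higher, against 47.1%), which follows from the shift of all genes to a median of -0.166. With 1 library left out, Il3ra was between 0.34 and 0.49 and Il5ra between 0.13 and 0.48. With the replicate number as a block, Il3ra was at 0.39 and Csf2ra at -0.53, with 2842 higher and 3247 lower genes in all, and no call of a subunit changed. The deviations of same-numbered libraries correlated at -0.00869, -0.0162 and -0.0224, and no pairing by number is seen in them. Depth limits Il5ra, with at most 41 counts in a library, and the ligand genes. The self-test used simulated counts with few and balanced changes. It does not cover a change of many genes at once or reads shared between Csf2rb and Csf2rb2.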

Other observations

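The 2 nearest annotated genes on each side of the subunits were read as values. Ncf4, next to Csf2rb2 on chromosome 15 and the gene of an NADPH oxidase subunit, had 91.5 CPM in PBS against 69.7 CPM with IL-3, a log2 fold change of -0.39 (edgeR adjusted p 0.000733), opposite in sign to both beta chains. Tex33, on the far side of Csf2rb, had no count. Next to Il5ra, Trnt1 was not called (log2 fold change 0.14), and Crbn had a log2 fold change of -0.32 (edgeR adjusted p 0.0278). Olfr31, next to Il3ra, was not called, with a log2 fold change of 0.31 at 4.42 CPM in PBS.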
